A study of Mus musculus with 12 samples.

Results

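The Nodal pathway and the formative state were read in the RNA of mouse embryonic stem cells (ESCs) through 8 genes, taken by symbol from the 24881 symbols of the table. They are *Nodal*, its inhibitors *Lefty1* and *Lefty2*, its co-receptor *Tdgf1*, and *Otx2*, *Fgf5*, *Pou3f1* and *Sall2*, genes associated with cells that leave the naive state. All 8 are in the table, and 7 passed the filter on low values (a mean of at least 0.5 FPKM over the 8 libraries). FPKM are fragment numbers scaled by the length of the transcript and the number of fragments mapped, so that levels can be set side by side between genes.

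The cells are R1 mouse ESCs that carry the FUCCI reporters, fluorescent proteins whose levels follow the cell cycle, and all were sorted in G1 phase before RNA extraction. WT and P53-/- cells, the latter made with CRISPR-Cas9 against *Trp53* and grown up from single cells, were each cultured in serum with LIF or in 2i. The 2i medium is serum free and holds PD0325901, an inhibitor of MEK, CHIR99021, an inhibitor of GSK3, and LIF. Each of the 4 groups had 2 libraries of total RNA depleted of ribosomal RNA. The study names 2 P53-/- clones for the RNA sequencing, but the table does not say which library is which clone, and for the WT groups nothing says that the libraries came from separate cultures. The p values below therefore measure only the spread between these libraries, which may be technical where they did not.

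Nodal is a secreted signal of the TGF-beta superfamily that is cut by convertases and binds type I and type II activin receptors together with the co-receptor encoded by *Tdgf1* (Cripto). The receptors phosphorylate *Smad2* and *Smad3*, which enter the nucleus with *Smad4* and act with *Foxh1*, and the secreted Lefty proteins, themselves targets of the pathway, block the signal. In the early embryo the pathway maintains the pluripotent epiblast and later patterns the mesendoderm. Formative cells, between the naive state that 2i upholds and the primed state, are known for *Otx2*, *Fgf5* and *Pou3f1* (Oct6).

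Promoter sequences of the members were taken from RefSeq (GRCm38.p6) and matched by symbol, and 5 of the 8 genes had one, *Nodal*, *Tdgf1*, *Otx2*, *Fgf5* and *Sall2*. *Lefty1*, *Lefty2* and *Pou3f1* had no entry. The 250 bases upstream of the start are shown for the ligand and its co-receptor, which carried the clearest difference between genotypes and the highest level. The *Nodal* promoter lies at chr10:61417722-61417971 on the plus strand and that of *Tdgf1* at chr9:110946159-110946408 on the minus strand. Each is written 5′ to 3′ on the gene's strand, and capitals mark matches, on either strand, to the FOXH1 motif (AATNNACA), the SMAD box (CAGAC), the TCF/LEF motif (CTTTGNT) and the half-site of the P53 response element.
Nodal: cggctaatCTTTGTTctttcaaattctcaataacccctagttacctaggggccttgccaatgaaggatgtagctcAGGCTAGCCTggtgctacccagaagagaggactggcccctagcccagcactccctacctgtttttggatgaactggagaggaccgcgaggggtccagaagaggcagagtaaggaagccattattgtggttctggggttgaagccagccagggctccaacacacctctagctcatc
Tdgf1: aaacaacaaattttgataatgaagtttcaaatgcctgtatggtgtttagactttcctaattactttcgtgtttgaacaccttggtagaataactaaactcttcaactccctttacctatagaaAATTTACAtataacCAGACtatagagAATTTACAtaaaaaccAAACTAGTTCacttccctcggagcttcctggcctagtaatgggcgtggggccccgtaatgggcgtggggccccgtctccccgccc

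In the *Nodal* window, the first capital run is the TCF/LEF motif, 242 bases upstream of the start, and the second the P53 half-site, 175 bases upstream. The *Tdgf1* window holds 2 FOXH1 motifs, the first of which begins 127 bases upstream, a SMAD box between them and a P53 half-site after them. No matches of different motifs overlap in these windows. Of the members not shown, *Sall2* has a P53 half-site at 1 of its 2 starts and a FOXH1 motif at the other, *Otx2* has 1 FOXH1 motif, which lies in 2 overlapping windows of its 4, and no P53 half-site, and the *Fgf5* window has none of the 4 motifs. Among 32851 RefSeq promoters of the same length, the FOXH1 motif was present in 10.9%, the SMAD box in 42.2%, the TCF/LEF motif in 16.0% and the P53 half-site in 7.13%. The letters are a description of the sequence, and binding was not measured in the table.

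The libraries were ESC libraries by their markers. All 10 ESC markers were expressed, with a summed level of 1790 to 2150 FPKM, against 1.6 to 4.75 FPKM for 10 primitive endoderm markers and 3.08 to 14.7 FPKM for 8 mesendoderm markers. Summed levels were 22.9 to 41.5 FPKM for 8 neural progenitor, 3.6 to 13.0 for 8 fibroblast and 9.36 to 16.9 for 8 trophoblast markers, with *Ttr* (primitive endoderm) and *Col3a1* (fibroblast) at 0 in all 8 libraries. *Trp53* stood at 26.8 and 33.7 FPKM in WT 2i against 7.25 and 1.88 in P53-/- 2i, and at 77.6 and 75.1 in WT serum against 16.8 and 3.68 in P53-/- serum. Some of these sums moved with the groups compared. Fibroblast markers summed to 3.6 and 5.29 FPKM in P53-/- 2i against 7.8 or more in WT 2i. Neural progenitor markers were at 22.9 and 27.8 against 32.0 and 34.4 FPKM in 2i, and at 36.1 and 41.5 against 26.5 and 27.9 FPKM in serum (P53-/- against WT). Primitive endoderm markers were at 1.6 and 2.06 FPKM in P53-/- serum against 3.31 and 3.36 in WT serum. Mesendoderm markers were at 3.08 and 3.37 FPKM in P53-/- serum against 4.14 and 4.27 in WT serum. Between cultures, mesendoderm markers were at 9.12 to 14.7 FPKM in the 2i and 3.08 to 4.27 FPKM in the serum libraries, and trophoblast markers at 12.4 to 16.9 and 9.36 to 11.8 FPKM. The fibroblast sum was 11.4 and 13.0 FPKM in P53-/- serum, above P53-/- 2i, and the ESC sum 2090 to 2150 FPKM in 2i and 1790 to 1980 FPKM in serum. Single ESC markers differed between genotypes in 2i, where their sums lay in 1 range. *Dppa3* rose from 28.1 and 31.5 FPKM in WT 2i to 397 and 446 in P53-/- 2i (log2 difference 3.82, adjusted p = 0.001575), and *Klf4* fell from 48.2 and 48.3 FPKM to 23.2 and 26.3 (-0.96, adjusted p = 0.007817). The part of these markers in the differences of the members was not tested. The depth, estimated from the lowest steps in the FPKM values, ran from 5200000 to 13000000 fragments per library, up to a factor common to all. At that depth the members other than *Fgf5* rested on an estimated 15 fragments (*Pou3f1*, WT 2i library 2) to 13482 fragments (*Tdgf1*, WT serum library 1).

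**Figure D1:**
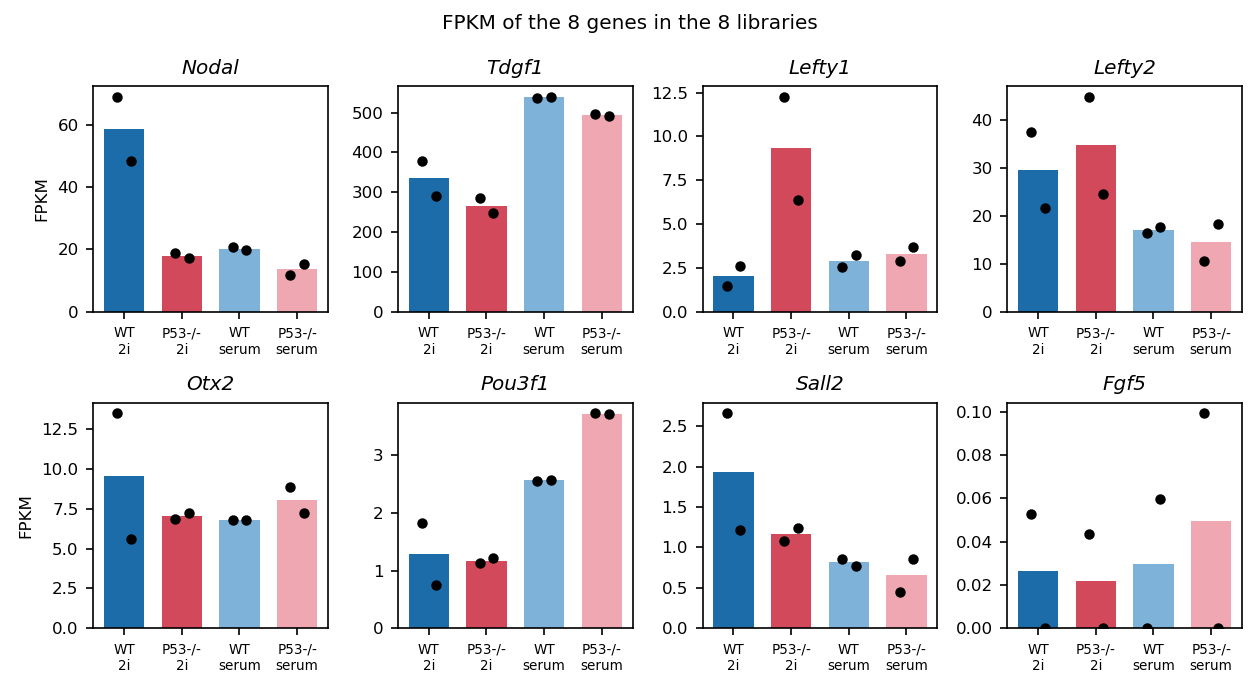
FPKM (vertical axes, each from 0) of the 8 genes by group, with the 2 libraries as points and their mean as a bar. *Nodal* reaches 69.0 and 48.3 FPKM in WT 2i and stays at or below 20.7 in the other 6 libraries, whereas *Lefty1* is highest in P53-/- 2i.

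The ligand *Nodal* was the member with the clearest contrast. In WT cells it had 69.0 and 48.3 FPKM in 2i and 20.7 and 19.8 FPKM in serum. In P53-/- cells it had 18.8 and 17.2 FPKM in 2i and 11.9 and 15.2 FPKM in serum. Both WT 2i libraries were thus above all other libraries, and within each culture the WT libraries lay above the P53-/- libraries. As mean ± SD (n = 2), WT cells gave 58.7 ± 14.6 FPKM in 2i and 20.3 ± 0.673 FPKM in serum. P53-/- cells gave 18.0 ± 1.14 FPKM in 2i and 13.6 ± 2.35 FPKM in serum. The neighbours WT serum and P53-/- 2i were separated by little more than their SDs.

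Whether the culture changes these genes was asked first, with limma on log2(FPKM + 0.1), a scale that understates changes of low genes, and genes counted as called where the adjusted p (Benjamini-Hochberg, over 12572 genes) was under 0.1 and the fold change over 1.5. In WT cells, 2 members were called higher in 2i than in serum (*Nodal* and *Sall2*), against 27.2% of all genes tested. Another 2 were called lower (*Tdgf1* and *Pou3f1*), against 28.6% of all genes. With 7 members tested, these shares are near those of the whole transcriptome. The libraries of WT 2i lay wholly above those of WT serum for 3 of the 8 members and wholly below for 2. Of all genes tested, 40.0% and 41.7% were separated in these directions. In P53-/- cells 4 members lay wholly above and 3 wholly below, against 39.7% and 42.1% of all genes. When each library was rescaled to its FPKM sum without small RNA genes known by name, 66.5% of the genes called were higher in WT 2i, against 48.8% here. The median difference of the members was 0.35 on the log2 scale, against -0.02 for all genes.

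*Nodal* was 2.84-fold higher in WT 2i than in WT serum (log2 difference 1.51, SE 0.19, limma adjusted p = 0.0004165), and the values of the groups did not overlap. The difference in P53-/- cells was 0.41 on the log2 scale (SE 0.19, adjusted p = 0.0969), a fold change of 1.33 that missed the fold threshold. It passed both thresholds without P53-/- serum library 2, at 0.59.

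The co-receptor *Tdgf1* had by far the highest level of the members. The 2i libraries had 380 and 291 FPKM of its RNA in WT and 285 and 247 FPKM in P53-/- cells. The serum libraries had 538 and 540 FPKM in WT and 497 and 490 FPKM in P53-/- cells. Both serum groups were above both 2i groups with no overlap. In WT cells *Tdgf1* was 1.62-fold lower in 2i (log2 difference -0.70, SE 0.16, adjusted p = 0.007203), and in P53-/- cells 1.86-fold lower (-0.90, SE 0.16, adjusted p = 0.002044). The WT call was lost without WT 2i library 2 (-0.50, under the fold threshold), under quantile normalization (-0.54) and in the rescaling without small RNA genes by name (-0.39). Of its transcript windows of 50 bases, 8.86% are also in the pseudogene *Tdgf1-ps1*, so the counting may have split a small part of its reads.

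The inhibitors *Lefty1* and *Lefty2* did not move in step. WT cells held 1.45 and 2.59 FPKM of *Lefty1* in 2i and 2.55 and 3.24 FPKM in serum. P53-/- cells held 12.3 and 6.38 FPKM in 2i and 2.89 and 3.70 FPKM in serum. The P53-/- 2i libraries were the highest of all, and the other groups spanned 1.45 to 3.70 FPKM. In WT cells *Lefty2* had 37.5 and 21.5 FPKM in 2i and 16.4 and 17.7 FPKM in serum. In P53-/- cells it had 44.8 and 24.5 FPKM in 2i and 10.7 and 18.2 FPKM in serum. All 4 libraries in 2i were above all 4 in serum, and the genotypes overlapped in both cultures.

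By culture, *Lefty1* differed by -0.54 in WT cells (log2, SE 0.37, adjusted p = 0.2347), with overlapping libraries, and was called only without WT 2i library 2 (-0.94, adjusted p = 0.09086). In P53-/- cells it was 2.65-fold higher in 2i (log2 difference 1.41, SE 0.37, adjusted p = 0.01144). In P53-/- cells, where 2 members were called higher in 2i (*Lefty1* and *Lefty2*, background 28%) and 2 lower (*Tdgf1* and *Pou3f1*, background 30.1%), *Lefty2* was 2.37-fold higher (1.24, SE 0.37, adjusted p = 0.0202). That call was lost without P53-/- 2i library 1 or P53-/- serum library 1, at adjusted p = 0.1368 and 0.1389. In WT cells *Lefty2* differed by 0.74 (SE 0.37, adjusted p = 0.1227) and was not called, an outcome kept in 12 of 19 alternatives. It was called without WT 2i library 2 (1.13, adjusted p = 0.05666) or either P53-/- 2i library (adjusted p = 0.09821 and 0.09945). The median of the members in P53-/- cells was 0.41, against -0.03 for all genes.

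The formative factors gave different patterns. *Otx2*, a homeobox factor that directs the exit from naive pluripotency, had levels in WT cells of 13.5 and 5.62 FPKM in 2i and 6.78 and 6.81 FPKM in serum. The P53-/- cells had 6.85 and 7.22 FPKM in 2i and 8.86 and 7.25 FPKM in serum. The highest and the lowest value both came from WT 2i, and the other groups lay within 6.78 to 8.86 FPKM. None of the 4 comparisons called *Otx2* (differences of -0.30 to 0.35, adjusted p = 0.4071 or more). Without WT 2i library 2 the difference between 2i and serum in WT cells was 0.98 (adjusted p = 0.004623) and that between P53-/- and WT in 2i -0.93 (adjusted p = 0.04421), both called. Without WT 2i library 1 they were -0.27 and 0.32, not called.

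*Pou3f1*, the POU factor Oct6, had levels in WT cells of 1.82 and 0.759 FPKM in 2i and 2.56 and 2.57 FPKM in serum. The P53-/- cells had 1.13 and 1.22 FPKM in 2i and 3.73 and 3.72 FPKM in serum. Every serum library was above every 2i library. In WT cells *Pou3f1* was 2.08-fold lower in 2i (log2 difference -1.05, SE 0.36, adjusted p = 0.03505), a call lost without WT 2i library 2 (-0.47) or either WT serum library (adjusted p = 0.1245 and 0.1185). In P53-/- cells it was 3.01-fold lower (-1.59, SE 0.36, adjusted p = 0.005857).

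*Sall2*, a zinc finger factor, had levels in WT cells of 2.66 and 1.21 FPKM in 2i and 0.860 and 0.775 FPKM in serum. The P53-/- cells had 1.08 and 1.24 FPKM in 2i and 0.455 and 0.862 FPKM in serum. All 2i libraries were above all serum libraries, at levels that rest on 28 to 107 estimated fragments. The WT difference was 1.06 (SE 0.44, adjusted p = 0.07069), called 2.08-fold higher in 2i, and that of P53-/- cells 0.79 (SE 0.44, adjusted p = 0.155). The WT call was lost without either WT serum library (adjusted p = 0.1542 and 0.2011), without WT 2i library 1 (0.52) and under quantile normalization (0.79, adjusted p = 0.1535). The difference in P53-/- cells was called without either WT 2i library or P53-/- serum library 2 (adjusted p = 0.09907, 0.09167 and 0.09016).

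*Fgf5*, a ligand whose expression marks the epiblast after implantation, was not detectable as expressed at this depth. It was listed at 0 in 4 libraries, 1 of each group, and at 0.0526 FPKM in the other WT 2i library and 0.0597 FPKM in that of WT serum, each an estimated 1 fragment. In the other P53-/- libraries it was at 0.0435 FPKM in 2i, an estimated 1 fragment, and 0.0993 FPKM in serum, an estimated 3 fragments. It did not pass the filter. Tested without a filter, its differences in the 4 comparisons ran from -0.24 to 0.16 (adjusted p = 0.7069 or more).

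The libraries of WT 2i differed more for these genes than for most. Library 1 was 2.38-fold above library 2 for *Otx2*, 2.23-fold for *Pou3f1*, 2.1-fold for *Sall2* and 1.74-fold for *Lefty2*, whereas the median gene differed by 1.19-fold in either direction. *Nodal* was 1.43-fold and *Tdgf1* 1.31-fold higher in library 1, and *Lefty1* was lower (ratio 0.578). In P53-/- 2i the Lefty genes stood out, with library 1 at 1.91-fold (*Lefty1*) and 1.82-fold (*Lefty2*) of library 2, against 0.879 to 1.15 for the other 5 tested members. In P53-/- serum library 1 was at 0.577 of library 2 for *Sall2* and 0.587 for *Lefty2*, and at 0.783 to 1.22 for the other members tested. In WT serum these ratios were between 0.791 and 1.1. The median gene differed by 1.11-fold to 1.17-fold in these 3 groups.

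**Figure D2:**
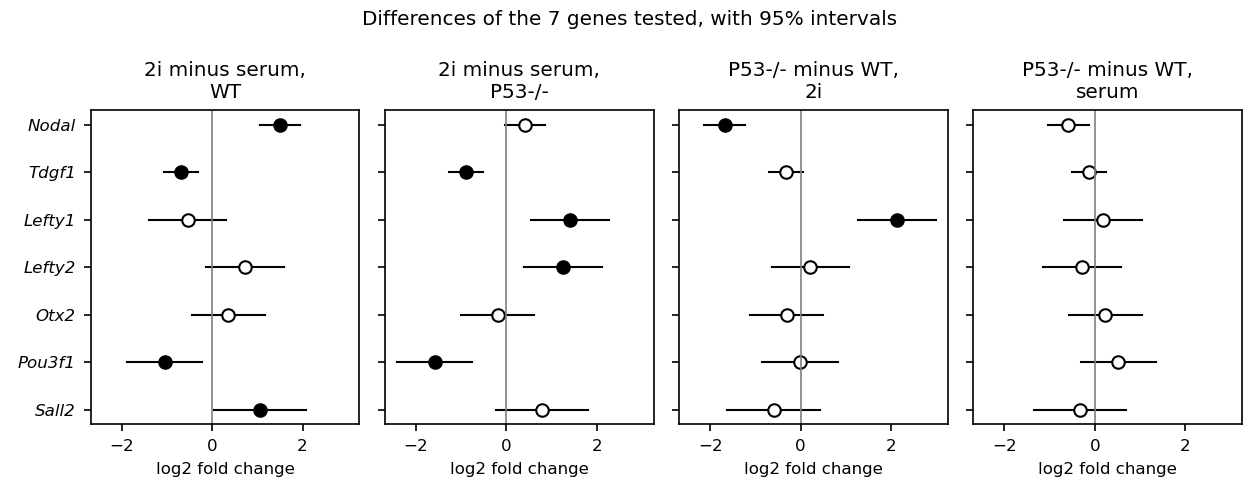
Log2 fold change (horizontal axes) of the 7 members tested in the 4 comparisons of groups, with 95% intervals from limma. Filled points passed an adjusted p of 0.1 and a 1.5-fold change, and in the comparisons of genotypes these were *Nodal* (-1.68) and *Lefty1* (2.13) in 2i and none in serum.

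The loss of P53 was compared within each culture, the question of the study. In 2i, 1 member was called higher in P53-/- than in WT cells (*Lefty1*, background 4.36%) and 1 lower (*Nodal*, background 5.97%). These comparisons share their 2i libraries with the comparisons of cultures above. *Nodal* was 3.2-fold lower in P53-/- 2i (log2 difference -1.68, SE 0.19, adjusted p = 0.004114), with -1.94 to -1.42 when any 1 library was left out, called each time. *Lefty1* was 4.38-fold higher (2.13, SE 0.37, adjusted p = 0.01909), with 1.67 to 2.60 when any 1 library was left out. When only the 2i groups were fitted, *Lefty1* was no longer called (adjusted p = 0.1536). *Nodal* stayed called in every alternative that kept all libraries, with a limma adjusted p of up to 0.09435.

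The other members were not called in 2i. The 95% interval of the difference ran from -0.70 to 0.05 for *Tdgf1*, whose libraries did not overlap, and from -0.64 to 1.08 for *Lefty2*. It ran from -1.11 to 0.50 for *Otx2*, from -0.85 to 0.82 for *Pou3f1* and from -1.62 to 0.42 for *Sall2*. Each of these 5 intervals holds changes of more than 1.5-fold in at least one direction. The P53-/- 2i libraries lay wholly above WT 2i for 1 of the 8 members and wholly below for 2, against 29.0% and 24.7% of all genes.

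In serum no member was called between genotypes by limma, with backgrounds of 0.135% of genes called higher and 0.883% lower. Of the 7 members tested, 1 had an unadjusted limma p under 0.05, as had 1422 of all 12572 genes. This member was *Nodal*, whose P53-/- libraries were both under the WT libraries (log2 difference -0.58, SE 0.19, limma adjusted p = 0.3115). *Pou3f1* was 3.73 and 3.72 FPKM against 2.56 and 2.57, a difference of 0.52 (SE 0.36, adjusted p = 0.6244). For the remaining members tested the differences ran from -0.33 (*Sall2*) to 0.23 (*Otx2*). The P53-/- serum libraries lay wholly above WT serum for 2 of the 8 members and wholly below for 2, against 25.7% and 21.8% of all genes.

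The difference between the effects of P53 loss in 2i and in serum was tested as an interaction. No member was called by limma (background 0.103% higher and 0.103% lower). Of the 7 members tested, 2 had an unadjusted limma p under 0.05, as had 1651 of all 12572 genes. For *Nodal* the effect in 2i was lower than that in serum by a log2 difference of -1.10 (SE 0.27, limma adjusted p = 0.1901). For *Lefty1* it was 1.95 (SE 0.52, limma adjusted p = 0.2066). A different effect of P53 loss in 2i and in serum was therefore not established for *Nodal* or *Lefty1*.

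**Figure D3:**
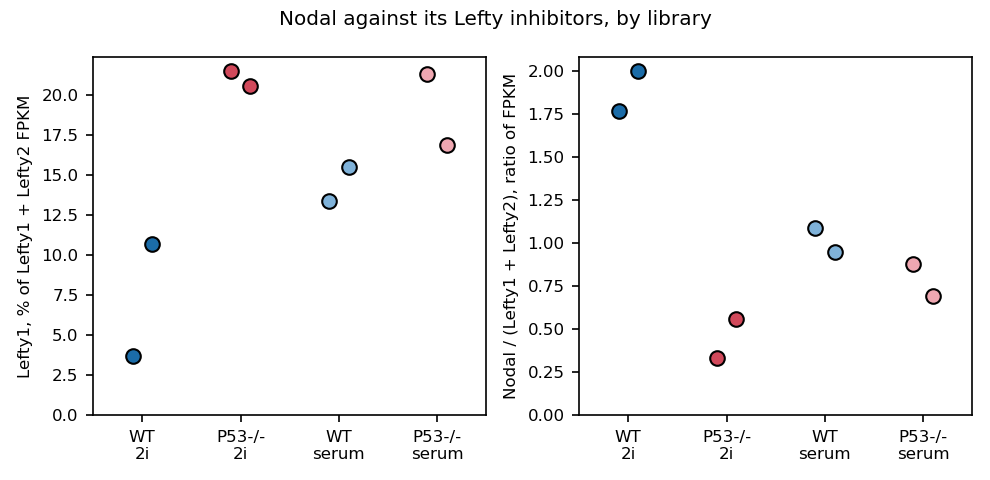
Share of *Lefty1* in the summed Lefty FPKM (left, percent) and ratio of *Nodal* FPKM to that sum (right) in each of the 8 libraries. The ratio is highest in WT 2i (1.77 and 2.0) and lowest in P53-/- 2i (0.329 and 0.556), with the serum libraries between.

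Set against its inhibitors, *Nodal* was highest in WT 2i. The ratio of *Nodal* to the summed FPKM of *Lefty1* and *Lefty2* was 1.77 and 2.0 in WT 2i and 1.09 and 0.946 in WT serum. The ratio in P53-/- cells was 0.329 and 0.556 in 2i and 0.879 and 0.695 in serum. No group overlapped another, and with 2 libraries in each group the smallest p of an exact two-sided permutation test is 0.33. *Lefty1* made up 3.72% and 10.7% of the sum in WT 2i and 13.4% and 15.5% in WT serum. P53-/- cells had a share of 21.5% and 20.6% in 2i and of 21.3% and 16.9% in serum. This share was higher in P53-/- than in WT libraries in both cultures. *Lefty1* and *Lefty2* are near copies in part, with 17.9% of the *Lefty1* and 12.0% of the *Lefty2* windows of 50 bases found in the other, so reads from these stretches may have been assigned to either.

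**Figure D4:**
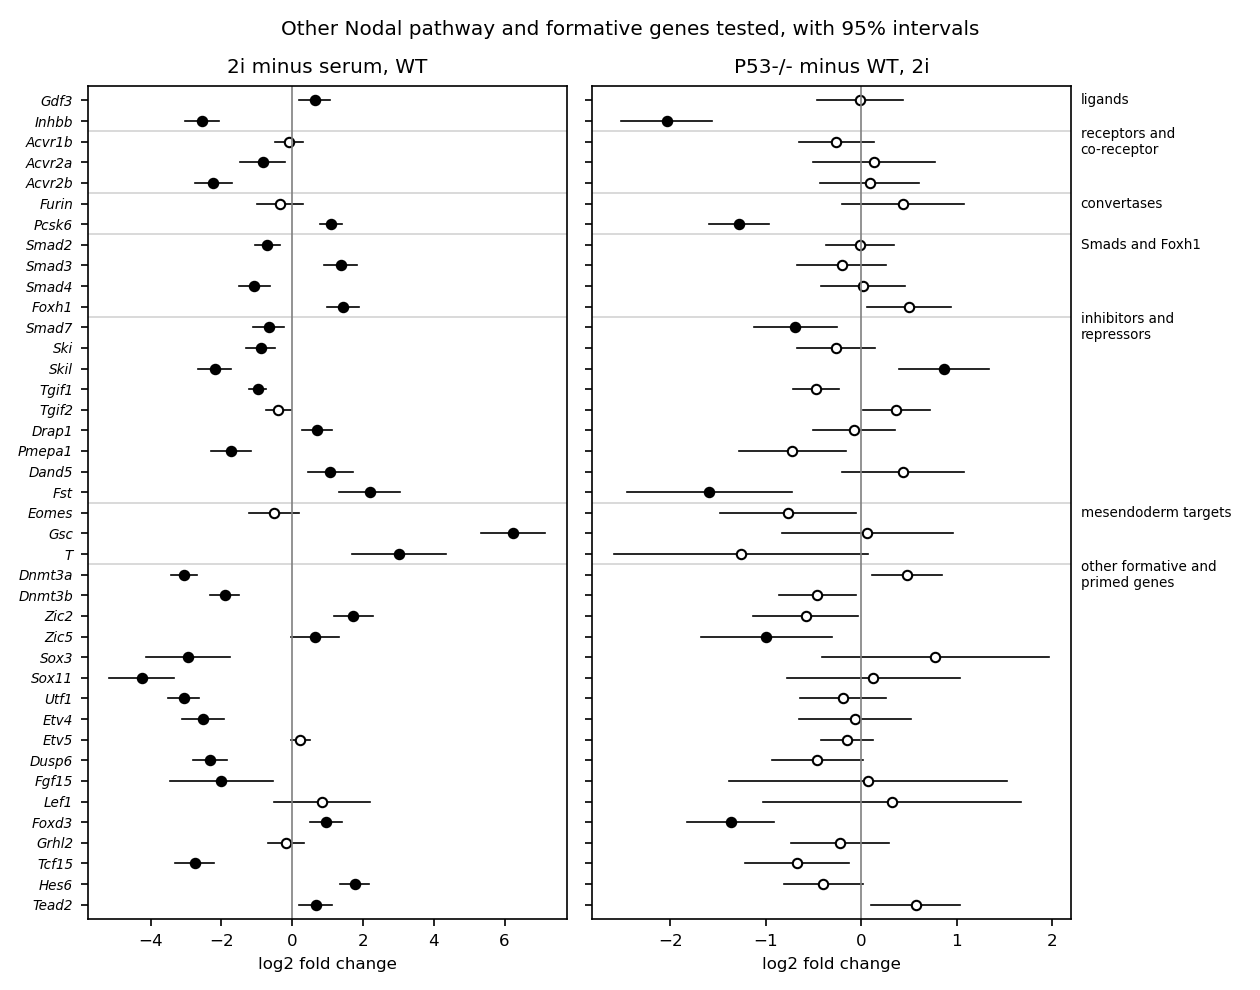
Log2 fold change (horizontal axes) with 95% intervals of the 40 other Nodal pathway and formative genes tested, for 2i minus serum in WT cells (left) and P53-/- minus WT in 2i (right), filled where called. Points spread widely by culture and lie nearer to 0 by genotype, with *Inhbb* (-2.04) and *Fst* (-1.59) the lowest on the right. *Gsc* is listed at 0 in both WT serum libraries, so its position on the left depends on the pseudocount.

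The rest of the pathway was read through 31 further genes, of which 23 were tested. In WT cells 9 were called higher and 10 lower in 2i than in serum (median -0.39), where 27.2% and 28.6% of all genes were. The lower ones numbered 6 when small RNA genes known by name were left out of the scaling. Of the same 23 genes, 7 were called higher and 11 lower in P53-/- cells (median -0.18), where 28% and 30.1% of all genes were. Between genotypes in 2i, 1 was called higher, a share like the 4.36% of all genes, and 4 lower, against 5.97% of all genes (median -0.07). In serum limma called none of the 23 (median -0.04). An unadjusted limma p under 0.05 was found for 2 of them, and for 1422 of all 12572 genes.

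Of the ligands, *Gdf3* rose from 33.4 and 33.9 FPKM in WT serum to 56.2 and 48.2 FPKM in WT 2i (log2 difference 0.63, adjusted p = 0.0238). That call was lost without WT 2i library 1 (0.52, adjusted p = 0.1178) or WT serum library 1 (adjusted p = 0.104), and in the wider small RNA rescaling the difference was 0.58, under the fold threshold. *Inhbb*, which encodes the beta B subunit of activin, went the other way and more strongly. The 2i libraries had 6.22 and 8.72 FPKM of its RNA in WT and 1.88 and 1.57 FPKM in P53-/- cells. The serum libraries had 41.6 and 45.4 FPKM in WT and 52.1 and 68.4 FPKM in P53-/- cells. In 2i it was 4.1-fold lower in P53-/- than in WT cells (-2.04, SE 0.21, adjusted p = 0.0022), and in serum the difference was 0.46 (adjusted p = 0.458). *Gdf1* was under the filter, and *Inhba* was at 0 in all 8 libraries.

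The type II receptor genes *Acvr2a* and *Acvr2b* were both called lower in WT 2i than in WT serum, *Acvr2a* at a log2 difference of -0.84, a call lost without WT 2i library 1 (-0.50) or WT serum library 2, and the type I receptor gene *Acvr1b* was not called in any comparison. *Acvr2b* was 2.01 and 2.75 FPKM in WT 2i against 10.9 and 12.0 in WT serum (log2 difference -2.23, adjusted p = 0.000144). Of the convertases that process the ligand precursor, *Pcsk6* had a pattern close to that of *Nodal*. WT cells held 31.9 and 27.4 FPKM of its RNA in 2i and 14.5 and 13.3 FPKM in serum. P53-/- cells held 12.0 and 12.3 FPKM in 2i and 12.4 and 11.1 FPKM in serum. It was higher in WT 2i than in WT serum (1.08, SE 0.13, adjusted p = 0.000355) and lower in P53-/- 2i than in WT 2i (-1.28, SE 0.13, adjusted p = 0.00257). *Furin* was not called in any comparison.

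The Smads split. *Smad3* was called higher in 2i in WT cells (6.94 and 6.70 FPKM against 2.88 and 2.31, log2 difference 1.37, adjusted p = 0.00075). *Smad2* (-0.71, adjusted p = 0.00503) and *Smad4* (-1.08, adjusted p = 0.00188) were called lower, the former not in the rescaling without small RNA genes by name (-0.41, adjusted p = 0.3786). *Foxh1*, their DNA-binding partner, rose from 8.87 and 8.37 FPKM in serum to 24.2 and 22.6 FPKM in 2i in WT cells, and from 7.82 and 5.29 to 35.9 and 30.7 FPKM in P53-/- cells. None of these 4 was called between genotypes, and for *Foxh1* the difference in 2i was 0.50 (adjusted p = 0.153).

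Of 9 inhibitors and repressors tested, 3 were called higher and 5 lower in WT 2i than in WT serum. Of all genes, 27.2% were called higher and 28.6% lower. The higher ones were *Fst*, which encodes follistatin, *Dand5* and *Drap1*, and the lower ones *Smad7*, *Ski*, *Skil*, *Tgif1* and *Pmepa1*. The *Smad7* call was lost without WT 2i library 1 (-0.53), under quantile normalization (-0.48) and in the rescaling by name (-0.36), which also ended the calls of *Ski* (-0.59, adjusted p = 0.1849) and *Acvr2a* (-0.54, adjusted p = 0.2562). The *Drap1* call was lost without WT 2i library 1 (0.54) or WT serum library 2 (0.50). Between genotypes in 2i, *Skil* rose in P53-/- cells (4.84 and 7.14 FPKM in WT, 9.49 and 12.3 in P53-/-, log2 difference 0.87, adjusted p = 0.0463). *Fst* fell (3.92 and 8.17 FPKM in WT, 1.78 and 1.86 in P53-/-, -1.59, adjusted p = 0.0463), as did *Smad7*, a feedback inhibitor (19.6 and 23.6 FPKM in WT, 12.1 and 14.6 in P53-/-, -0.69, adjusted p = 0.0698). Without WT 2i library 2 the *Fst* difference was -1.07 (adjusted p = 0.1321), and the call was also lost without either P53-/- 2i library or WT serum library 1. The *Skil* call was lost without WT 2i library 1 (0.59), P53-/- 2i library 2 or WT serum library 1, and that of *Smad7* without WT 2i library 2 (-0.55), either P53-/- 2i library or either WT serum library, or without the trend (adjusted p = 0.1232). The rescaling by name ended both (adjusted p = 0.2321 for *Skil* and 0.3709 for *Smad7*). The *Skil*, *Fst* and *Smad7* calls were each lost in the fit of the 2i groups alone, with adjusted p = 0.221, 0.1828 and 0.1769. *Inhbb* (adjusted p = 0.1006) was lost in it too, and *Pcsk6* was the only 1 of the 5 still called.

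Of 6 mesendoderm targets 3 were tested. *Gsc* had 6.85 and 8.14 FPKM in WT 2i and was listed at 0 in both WT serum libraries. P53-/- cells had 6.23 and 9.83 FPKM in 2i and 0.0769 and 0.205 FPKM in serum. Brachyury (symbol T) rose from 0.227 and 0.285 FPKM in WT serum to 2.06 and 3.72 FPKM in WT 2i (log2 difference 3.02, adjusted p = 0.00281). Over all alternatives that difference spanned 1.60 to 3.43. *Eomes* was lower in P53-/- 2i than in P53-/- serum (-0.77, adjusted p = 0.057), a call lost in the fit of the P53-/- groups alone (adjusted p = 0.1198), in the rescaling by name (adjusted p = 0.3251), with a pseudocount of 1 (-0.48), without either P53-/- 2i library (adjusted p = 0.1029 and 0.1803) and without P53-/- serum library 1, where the difference was -0.38. None of the 3 was called between genotypes.

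Of 18 other formative and primed genes listed, 17 were tested. In WT cells 5 were called higher and 9 lower in 2i than in serum (median -1.91), where 27.2% and 28.6% of all genes were. In P53-/- cells 2 were called higher and 12 lower (median -1.98), where 28% and 30.1% of all genes were. The de novo DNA methyltransferase gene *Dnmt3a* was 1.55 and 1.59 FPKM in WT 2i against 13.8 and 14.0 in WT serum (log2 difference -3.07, adjusted p = 1.89e-05), and *Dnmt3b* differed by -1.91 (adjusted p = 9.43e-05). *Utf1* differed by -3.07, *Sox11* by -4.26, *Sox3* by -2.95, *Tcf15* by -2.76, *Fgf15* by -2.01, and *Etv4* and *Dusp6*, known targets of FGF and ERK signalling, by -2.53 and -2.32, all called. The *Fgf15* call was lost without WT serum library 1, and its difference ran from -2.97 to -1.05 when any 1 library was left out. *Sox11*, *Sox3* and *Fgf15* were at 0.0654 to 0.546 FPKM in WT 2i, where the size depends on the pseudocount. Over all alternatives their differences spanned -5.03 to -2.23, -3.60 to -1.26 and -2.97 to -0.81. *Etv5*, another FGF and ERK target, had 68.1 and 73.5 FPKM in WT 2i against 60.2 and 60.6 in WT serum. It differed by 0.23 (adjusted p = 0.1267) and was not called, and neither were *Lef1* and *Grhl2*. *Zic2*, *Hes6*, *Foxd3*, *Tead2* and *Zic5* were the 5 called higher, *Zic2* by 1.72 (adjusted p = 0.000586). The *Zic5* call (0.64, adjusted p = 0.09727) held in only 5 of 19 alternatives, and was lost without either WT 2i, either WT serum or either P53-/- serum library, with adjusted p = 0.1067 to 0.2432.

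Between genotypes, *Foxd3* and *Zic5* were called lower in P53-/- 2i (2 of 17, against 5.97% of all genes), and *Dnmt3a* was called higher in P53-/- serum. In WT cells *Foxd3* had 17.4 and 18.1 FPKM in 2i and 8.71 and 9.49 FPKM in serum. P53-/- cells had 6.70 and 6.96 FPKM in 2i and 11.9 and 18.1 FPKM in serum. Its difference in 2i was -1.36 (SE 0.20, adjusted p = 0.0096). *Zic5* differed by -0.99 (adjusted p = 0.0861), a call lost when any 1 library was left out. *Dnmt3a* was 24.2 and 29.0 FPKM in P53-/- serum (0.92 against WT serum, adjusted p = 0.0641), with adjusted p = 0.1975 in the fit of the serum groups alone. It was also lost without either P53-/- 2i library, either WT serum library or P53-/- serum library 2, with adjusted p = 0.105 to 0.438, and with no filter on low values (0.1197), in the rescaling by name (0.4054) and without the trend (0.1003), so that it held in 9 of 19 alternatives.

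The genes most like each member were sought by the root-mean-square difference of the log2 profiles, each centred on its mean over the 8 libraries, among 11489 tested genes with a mean of at least 1 FPKM. For *Nodal* they were *Capg* (0.2229), *Cgref1* (0.233) and *Acap1* (0.2627), where the median gene was at 0.938. *Capg*, for example, had 25.6 and 15.8 FPKM in the WT 2i libraries, where the other 6 lay between 5.40 and 9.51 FPKM. *Lefty1* was nearest to *Adam19*, *Mme* and *Stambpl1* at 0.3749 to 0.4018. *Lefty2* was nearest to *Sertad3* (0.1418), *Tpi1* and *Armc5*, and *Tdgf1* to *Sec24b* (0.07657), *Nomo1* and *Ubqln4*. *Otx2* was nearest to *Lpar1* (0.1861), *Arap1* and *1700096K18Rik*, *Pou3f1* to *Zfp33b* (0.1865), *Zbtb46* and *Cdh3*, and *Sall2* to *Plekhm2* (0.1637), *Cd302* and *Slc15a1*.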

How the data were processed

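RNA of G1-sorted R1 FUCCI ESCs, WT or P53-/- and cultured with serum or 2i, was sequenced in 2 libraries per group after ribosomal RNA depletion, with random primers and a stranded kit. The authors deposited 1 table of FPKM values per gene symbol and library. The submitters' processing notes name STAR, Cufflinks, DESeq2 and mm9 without roles or versions. The FPKM table holds no read totals, so depth was estimated from the lowest FPKM steps of genes with 1 transcript. Depths are known up to a factor shared by all libraries. Columns name genotype and culture only, and libraries are numbered by column order. P21-/- libraries and the WT 2i libraries sequenced with them were not analysed here.

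The 12572 genes whose mean reached 0.5 FPKM were tested on the scale log2(FPKM + 0.1) by limma 3.58.1 (R 4.3.3), in 1 model of all 4 groups with a trended eBayes step and Benjamini-Hochberg adjustment over these genes. Calls needed a fold change over 1.5 at an adjusted p under 0.1, as in the study. Count models were not run, since FPKM values are not counts. Scripts were tested on simulated data. Tables and figures were made with pandas 2.3.3, numpy 2.4.6 and matplotlib 3.10.9 under Python 3.11.15.

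The members, and the lists of 31 pathway, 18 formative and 52 marker entries, were chosen with earlier results of these data known. All members are named, together with called genes of the pathway and formative lists and, for each tested member, the 3 genes nearest in profile. A few uncalled list genes were named after their values were seen. Alternatives were pseudocounts of 1 and 0.01, no filter, a mean of at least 1 FPKM, median-ratio scaling, quantile normalization, rescaling without the 1288 small RNA genes known by name, only the groups compared, no trend, an adjusted p under 0.05, and each library left out. Small RNA genes took 92.71% to 99.4% of a library's FPKM sum. Rescaling without 1321 small RNA genes, which adds gene types and transcripts of at most 250 bases, was chosen after seeing the data. Sequences are RefSeq's (GRCm38.p6), and shared windows were counted in GENCODE M21 transcripts. The deposited values use another build, so no positions were joined to them.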

Additional observations from a re-analysis of the deposited data

Results flagged for a closer look

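*Inhbb* and *Foxd3* were the only genes of the pathway and formative lists whose effect of P53 loss was called different between 2i and serum by the limma interaction test, and no member was. For *Inhbb* the log2 effect was -2.04 in 2i and 0.46 in serum, a difference of -2.49 (SE 0.29, adjusted p = 0.0263). Both P53-/- 2i libraries were lower than both WT 2i libraries, and both P53-/- serum libraries were higher than both WT serum libraries. The difference ran from -2.74 to -2.25 when 1 library was left out, but was no longer called without P53-/- 2i library 2, WT serum library 1 or P53-/- serum library 2 (adjusted p = 0.1339, 0.1483 and 0.1047).

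For *Foxd3*, a factor of early epiblast cells, the log2 effect was -1.36 in 2i and 0.68 in serum, a difference of -2.05 (SE 0.28, adjusted p = 0.0634). The libraries were separated in opposite directions in the same way. The call was lost without WT 2i library 2 or any of P53-/- 2i library 1, P53-/- 2i library 2, WT serum library 1 and WT serum library 2, with adjusted p = 0.1228, 0.1975, 0.2079, 0.2524 and 0.1724. It was also lost with no filter on low values (adjusted p = 0.1031) and without the trend (adjusted p = 0.1116).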

How the results depend on the processing

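No paired analysis was possible because the columns carry no replicate numbers. With all libraries kept, 11 alternatives gave 378 values of the members, of which 365 kept their direction and their side of the thresholds, 6 lost a call, 5 gained one and 2 reversed. The reversed ones were uncalled, *Pou3f1* for P53-/- 2i against WT 2i at 0.18 under quantile normalization and *Otx2* for P53-/- 2i against P53-/- serum at 0.031 in the rescaling without small RNA genes by name. The number of members called fell to 1 for P53-/- 2i against WT 2i when only these groups were fitted, since *Lefty1* was lost, and rose to 1 for the interaction in the rescaling by name, since *Lefty1* was gained (adjusted p = 0.08944). That rescaling moved the median of all genes to 0.301 (WT) and 0.199 (P53-/-) for 2i against serum, where *Tdgf1* (-0.39) and *Pou3f1* (-0.77) in WT cells were not called and *Lefty2* (1.04) was. *Lefty2* in WT cells also passed under quantile normalization, the wider rescaling and the fit of the WT groups alone.

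With 1 library left out, 280 values of the members gave 249 that kept direction and side, 9 that lost a call, 10 that gained one and 12 that reversed. A lone library was assumed to vary like the other groups. Members called in WT 2i against WT serum then numbered 2 to 5. Values that reversed were uncalled with all libraries and after reversing. *Otx2* spanned -0.27 to 0.98 for WT 2i against WT serum, -0.93 to 0.32 for P53-/- 2i against WT 2i and -1.16 to 0.085 for the interaction. *Pou3f1* spanned -0.59 to 0.57 for P53-/- 2i against WT 2i and -1.11 to 0.045 for the interaction, and *Lefty2* -0.21 to 0.65 in 2i and -0.67 to 0.10 in serum between genotypes. *Sall2* spanned -0.72 to 0.071 between genotypes in serum and -0.81 to 0.26 for the interaction.

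Among called pathway and formative genes, 769 of 819 values kept their call with all libraries and 542 of 600 with 1 left out, and none reversed. In the fit of the 2i groups alone, 1 pathway gene was called lower and none higher, against 4 and 1. Genes called in all went from 1299 to 193 for P53-/- 2i against WT 2i and from 128 to 37 in serum when only the compared groups were fitted, and to 771 and 73 at an adjusted p under 0.05. They numbered 677 of 12572 in 2i in the rescaling by name, and 495 to 1259 (2i) and 63 to 168 (serum) with 1 library left out. For the interaction, 26 became 16 at an adjusted p under 0.05, 40 without the trend, 66 with a pseudocount of 1, 159 and 70 in the narrower and wider rescaling, and 22 to 74 with 1 library left out. The share of calls that were higher moved in the rescaling by name from 48.2% to 60% for P53-/- 2i against P53-/- serum, from 42.2% to 29.7% for P53-/- 2i against WT 2i, from 13.3% to 36.9% in serum and from 50% to 27.7% for the interaction, and in the wider one to 28.4% in serum and 24.3% for the interaction. With 1 library left out it ran from 4.17% (without P53-/- serum library 2) to 32.4% (without WT serum library 2) in serum and from 40.9% (without P53-/- 2i library 1) to 79.5% (without WT serum library 1) for the interaction. The rescaling by name left FPKM sums of 453670 and 760840 in WT serum libraries 1 and 2. The P53-/- serum libraries kept 547590 and 582980, and the 2i libraries 465370 to 505240. The wider rescaling left 419430 and 478650 in WT serum libraries 1 and 2, and 419430 to 489530 over all libraries. Whether these sums account for the changes in the rescaling by name was not tested. The cause of the other changes was not tested either. *Fgf5* rested on at most 3 estimated fragments in a library, and changes at that level were not detectable.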
